A study of Homo sapiens with 38 samples.

Results

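The comparison described here is the last day of forced beta-catenin activity in human embryonic stem cells: 72 h against 48 h of induction. Its members are the 4 libraries that the labels give as induced for 72 h or 48 h, replicates 1 and 2 of each, out of 38 libraries in the series, of which 37 hold values of their own. All 43412 genes of the deposited table were considered, and 24304 passed the filter on low counts and were tested.

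The cells were H9, an established human embryonic stem cell line, carrying a stably integrated, doxycycline-regulatable deltaN90 mutant of beta-catenin, called bcat here. Both groups received doxycycline at 1 µg/ml, which switches the construct on, in RPMI1640 with B27 supplement lacking vitamin A, after growth in mTESR1 medium. They differed in time alone, and no culture of the line kept in that medium without doxycycline for 48 h or 72 h was analysed here, so time in the medium and time of induction cannot be told apart. Other arms of the series gave H9 cells CHIR99021 at 10 µM or recombinant Wnt3a at 240 ng/ml, and each arm had its own 0 h cultures. Total RNA was sequenced in 2 libraries per group, which the labels call biological replicates without naming separate clones or thaws. P-values thus measure the spread between such libraries, estimated over all groups of the series and not only over those compared.

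Beta-catenin carries the signal of WNT ligands from the cell surface into the nucleus, where it activates genes with TCF and LEF proteins. Without a ligand, a complex holding APC, AXIN and the kinase GSK3 marks it for destruction through its N-terminal end, and a form lacking that end escapes. In the early embryo WNT signalling is needed for the primitive streak, the site where pluripotent epiblast cells leave their epithelium and become mesoderm and endoderm, and later for the posterior growth zone that makes presomitic mesoderm and switches on HOX genes.

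Depth was 18.99 M and 17.4 M estimated counts at 48 h and 15.7 M and 11.6 M at 72 h. Cytosolic ribosomal RNA took 14.9% and 60.3% of the 48 h libraries and 15.2% and 27.2% of the 72 h libraries, which left 16.2 M, 6.90 M, 13.3 M and 8.46 M counts for other genes. Replicates correlated across genes at 0.969 for 48 h and 0.968 for 72 h. Levels are given as CPM on TMM-scaled library sizes, called scaled CPM, always as replicate 1 and then replicate 2. Changes are fitted log2 changes, 72 h minus 48 h, from 2 libraries against 2, with 1 standard error. That error is the size of the change divided by the square root of the test's F statistic. It rests on a spread estimated over all 37 libraries. Bulk RNA cannot tell fewer cells of a type from less RNA per cell.

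Between 48 h and 72 h many genes of pluripotency, NODAL signalling and epithelial junctions fell, while many genes of presomitic mesoderm, the HOXB cluster, BMP response and mesenchyme rose. Of the genes tested, 1503 were called at an adjusted p below 0.05 in edgeR's quasi-likelihood test, which is 6.18%. Of these, 661 rose (2.72% of the genes tested) and 842 fell (3.46%), and the median log2 change over all genes tested was 0.000356. Among the called genes 641 changed by at least 2-fold, with 412 higher and 229 lower, and 240 (0.987%) by at least 4-fold. When each of the 4 libraries was left out in turn, 364 (1.5%) were called every time, 195 of them higher (0.802%) and 169 lower (0.695%). The count was 647 without 72 h replicate 2, 703 without 48 h replicate 1 and 1090 without 48 h replicate 2, the library with most ribosomal RNA, and 907 of the 1503 (3.73% of the genes tested) were called also without that one. The part of ribosomal RNA in the calls was not tested beyond this and a fit without ribosomal RNA genes, in which 1743 genes were called.

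**Figure D1:**
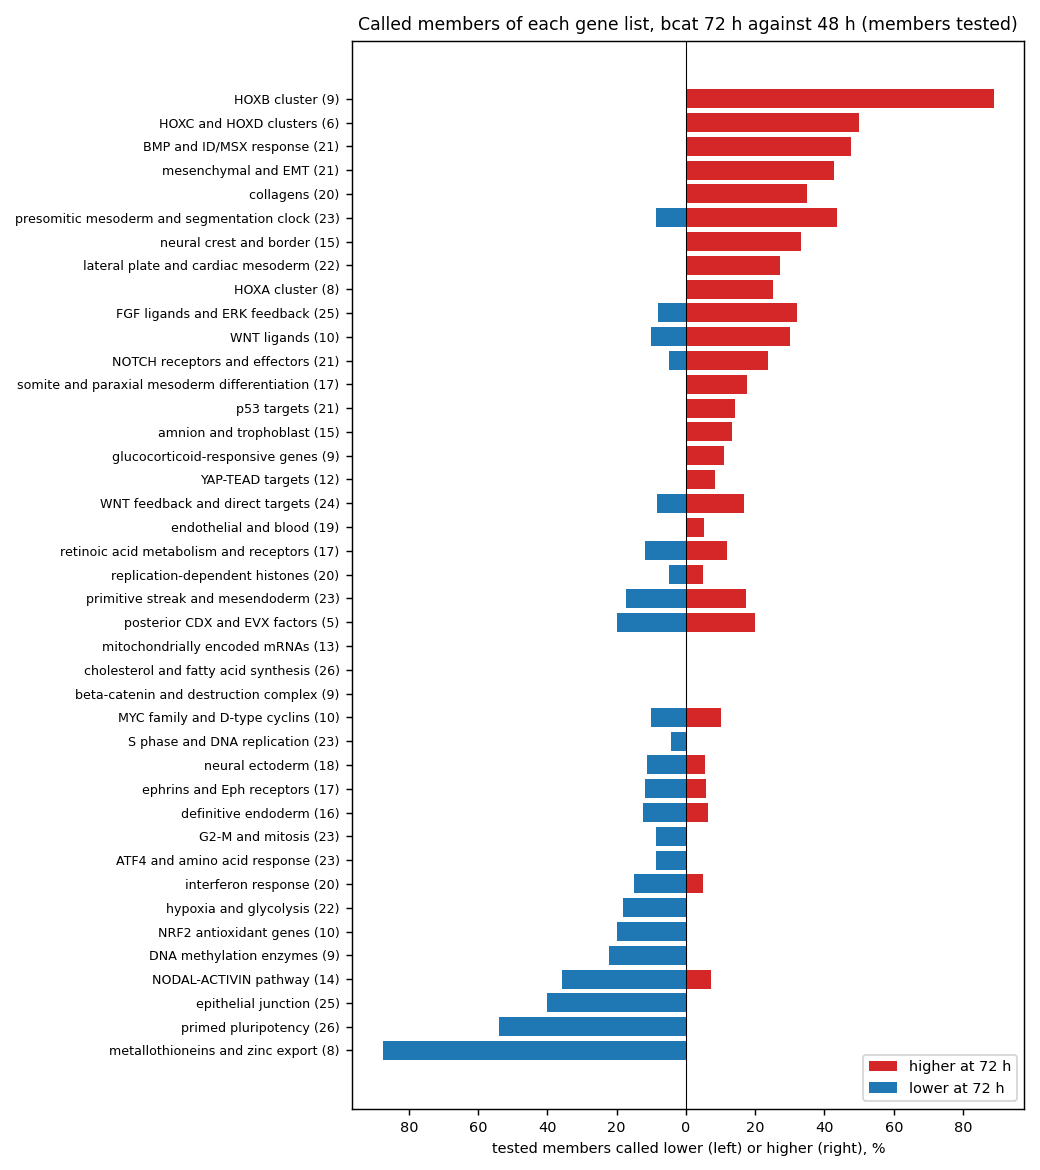
Share of the tested members of each of 41 gene lists that were called higher (red, right) or lower (blue, left) at 72 h than at 48 h, in %, with the number of members tested in brackets. Over all genes tested the shares were 2.72% higher and 3.46% lower. Lists share members, with 742 entries for 660 distinct genes. The HOXB cluster has the longest bar to the right (8 of 9) and the metallothioneins the longest to the left (7 of 8).

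No gene of the pathway's core was called over this day. CTNNB1, the gene for beta-catenin, held 2656 and 2479 scaled CPM at 48 h and 2507 and 1994 at 72 h, and its log2 change of -0.19 ± 0.10 was not called (edgeR adjusted p = 0.308). Without 72 h replicate 1 the change was -0.37 and was called (edgeR adjusted p = 0.0498). The libraries of the 2 times overlapped. At 0 h its mean had been 701 scaled CPM and at 8 h 2799.7, and all 48 h and 72 h libraries lay above both 0 h libraries. The table does not separate the transgene's reads from those of the cell's own gene. Of 9 genes for beta-catenin, its relative JUP and the destruction complex, 0 rose and 0 fell, with a median log2 change of -0.19. At an unadjusted p below 0.05 edgeR had 1 of them lower, and DESeq2 called 0.

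Most WNT feedback genes and direct targets were not called. The members that rose were LGR5, NOTUM, SFRP1 and BMP4, the last described with the BMP genes below. Of 24 tested, 4 rose and 2 fell, with a median of 0.01, though the number that fell was 1 without 48 h replicate 1, and the median was 0.25 without 48 h replicate 2. AXIN2, a scaffold of the destruction complex that the pathway itself induces, held 295 and 289.6 scaled CPM at 48 h and 402 and 339 at 72 h (edgeR adjusted p = 0.292). SP5, a transcription factor and common WNT target, held 135 and 175 scaled CPM at 48 h and 152 and 142 at 72 h, which overlap (edgeR adjusted p = 0.938). LEF1, a nuclear partner of beta-catenin, held 54.9 and 54.9 scaled CPM at 48 h and 92.5 and 89.2 at 72 h, apart in every library but not called (edgeR adjusted p = 0.0532). Libraries of the 2 times lay apart, in either direction, in 42.1% of all genes tested. That share applies wherever libraries are said to lie apart below, which is a description and no support beyond the call.

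Secreted and membrane regulators of the pathway, inhibitors and the receptor LGR5, moved in both directions. NOTUM, a secreted enzyme that inactivates WNT ligands, held 35.5 and 38.7 scaled CPM at 48 h and 80.5 and 80.04 at 72 h and rose by 1.12 ± 0.21 (edgeR adjusted p = 0.000778). SFRP1, a secreted WNT antagonist, held 65.9 and 64.8 scaled CPM at 48 h and 128 and 97.6 at 72 h and rose by 0.79 ± 0.12. Both 72 h libraries exceeded both 48 h libraries for each gene. LGR5, a receptor for R-spondins, held 0.969 and 0.261 scaled CPM at 48 h and 4.31 and 9.07 at 72 h and rose, though the call was lost without 72 h replicate 2, 48 h replicate 1 or 48 h replicate 2. APCDD1, a membrane inhibitor, held 46.7 and 60.9 scaled CPM at 48 h and 26.9 and 26.5 at 72 h and fell by 1.00 ± 0.17 on the log2 scale. DKK4, a secreted antagonist, held 17.4 and 9.54 scaled CPM at 48 h and 4.16 and 3.69 at 72 h and fell by 1.82 ± 0.33, and the call was lost without 48 h replicate 1. DKK1, its relative, held 199 and 99.8 scaled CPM at 48 h and 274 and 227 at 72 h, with wide spread at 48 h, and was not called (edgeR adjusted p = 0.0843).

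The promoter of SP5 is printed because SP5 is a textbook direct target of beta-catenin with TCF and LEF proteins. Its mean was 0.214 scaled CPM at 0 h and 93.5 at 24 h. The sequence is the 250 bases before its RefSeq start on GRCh38.p14, chr2:170715087-170715336, plus strand, with each CTTTGAT or CTTTGAA, a core of TCF and LEF binding motifs, in capitals on either strand.
SP5: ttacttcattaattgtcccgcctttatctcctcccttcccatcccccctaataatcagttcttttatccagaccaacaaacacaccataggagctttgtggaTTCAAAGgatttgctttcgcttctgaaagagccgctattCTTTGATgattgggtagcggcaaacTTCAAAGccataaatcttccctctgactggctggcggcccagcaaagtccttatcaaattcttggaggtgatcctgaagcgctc
It holds 3 matches, and 0.0199% of 35116 RefSeq windows of that length hold at least 3. The motif was chosen after values had been seen, and a match is a description of letters, not a binding site.

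Several WNT ligands rose. Of 10 tested, 3 rose and 1 fell, with a median of 0.45, though the median was 0.69 without 48 h replicate 1. WNT5A, which acts largely without beta-catenin, held 21.3 and 13.7 scaled CPM at 48 h and 64.7 and 97.6 at 72 h and rose by 2.18 ± 0.38 (edgeR adjusted p = 0.000852). WNT3A held 2.79 and 2.61 scaled CPM at 48 h and 9.36 and 10.2 at 72 h and rose by 1.85 ± 0.33. WNT5B held 226 and 225 scaled CPM at 48 h and 363 and 364 at 72 h and rose by 0.69 ± 0.13. All 3 were higher in both 72 h libraries than in either 48 h library. WNT10B was the member that fell, with 5.64 and 8.23 scaled CPM at 48 h and 1.78 and 1.69 at 72 h. WNT8A held 51.02 and 38.7 scaled CPM at 48 h and 73.99 and 74.97 at 72 h, apart but not called (edgeR adjusted p = 0.157).

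**Figure D2:**
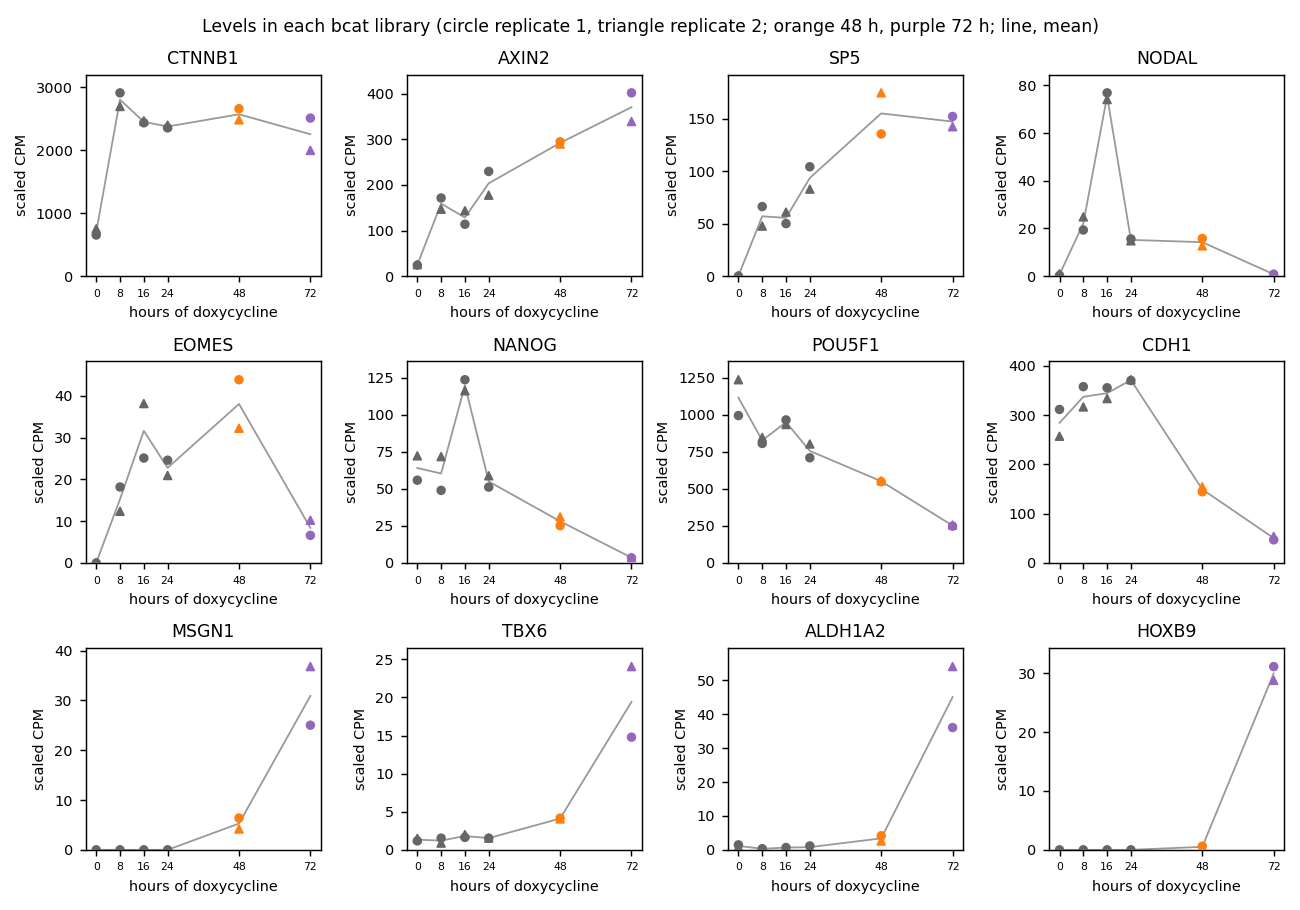
Levels of 12 genes in each of the 12 bcat libraries, in scaled CPM, against hours of doxycycline (circle, replicate 1; triangle, replicate 2; line, mean of both; orange 48 h, purple 72 h). CTNNB1 and SP5 overlap between 48 h and 72 h, NODAL, EOMES, NANOG, POU5F1 and CDH1 are lower at 72 h, and MSGN1, TBX6, ALDH1A2 and HOXB9 are higher.

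Many pluripotency genes fell. Of 26 tested, 0 rose and 14 fell, the median was -0.61, and with 1 library left out 9 to 13 fell, the fewest without 72 h replicate 2. Their summed level in scaled CPM was 5426 and 5441 at 48 h and 3811 and 3402 at 72 h. NANOG, a core factor of the pluripotent state, held 25.2 and 31.1 scaled CPM at 48 h and 3.49 and 3.69 at 72 h and fell by 2.96 ± 0.32 on the log2 scale (edgeR adjusted p = 1.91e-06). Its mean had been 64.1 at 0 h and 120.0 at 16 h, so the 72 h libraries were the lowest of the course.

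POU5F1, the gene for OCT4, held 549 and 555 scaled CPM at 48 h and 248 and 256 at 72 h and fell by 1.13 ± 0.11 (edgeR adjusted p = 3.32e-08). Both replicates of each time lay close to each other. SOX2, a partner factor, held 131 and 155 scaled CPM at 48 h and 86.2 and 67.9 at 72 h and fell by 0.89 ± 0.15. VRTN averaged 157 ± 2.06 scaled CPM at 48 h and 60.6 ± 0.856 scaled CPM at 72 h (SD, n = 2) and fell by 1.37 ± 0.12. DNMT3B, a DNA methyltransferase of early cells, held 388 and 347 scaled CPM at 48 h and 209 and 202 at 72 h and fell by 0.84 ± 0.10. The 2 times did not overlap in any of these genes. POU5F1 and NANOG have expressed or processed pseudogene copies, so part of their reads may have been assigned to those. LIN28A, an RNA-binding protein, held 1691 and 1637 scaled CPM at 48 h and 1379 and 1209.6 at 72 h and fell, and the call was lost without 72 h replicate 2, 48 h replicate 1 or 48 h replicate 2. Its relative LIN28B held 154 and 131 scaled CPM at 48 h and 141 and 125 at 72 h and was not called (edgeR adjusted p = 0.701).

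Several NODAL signalling genes fell, and NODAL itself had the largest fall among the genes taken as the 12 largest in each direction. NODAL, a TGF-beta family ligand of the streak, lies at chr10:70432315-70447951 (GENCODE, GRCh38). It held 15.8 and 12.7 scaled CPM at 48 h and 0.817 and 0.738 at 72 h and fell by 4.19 ± 0.38 on the log2 scale (edgeR adjusted p = 3.32e-08). Its mean had peaked at 75.5 at 16 h. TDGF1, the NODAL co-receptor, held 14.2 and 9.41 scaled CPM at 48 h and 2.15 and 3.27 at 72 h and fell by 2.21 ± 0.24. CER1, a secreted antagonist of NODAL, BMP and WNT, held 8.61 and 4.05 scaled CPM at 48 h and 1.26 and 0.738 at 72 h and fell by 2.70 ± 0.41.

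Of 14 genes of the NODAL and activin pathway tested, 1 rose and 5 fell, with a median of -1.40, or -1.28 with genes at 0 counts in a group set to their bound, though the number that rose was 0 without 72 h replicate 2, 48 h replicate 1 or 48 h replicate 2. FOXH1, the nuclear partner of NODAL's SMAD proteins, held 58.2 and 69.5 scaled CPM at 48 h and 38.9 and 46.1 at 72 h and fell, and the call was lost without 72 h replicate 1, 72 h replicate 2 or 48 h replicate 2. The inhibitor LEFTY2 was the member that rose, from 0 counts at 48 h to 0.371 and 0.527 scaled CPM at 72 h, at least 3.66-fold higher against 3 counts over the group, and the call was lost without 72 h replicate 2, 48 h replicate 1 or 48 h replicate 2. LEFTY1 had no counts at 72 h and was not called (edgeR adjusted p = 0.0814).

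Primitive streak genes moved in opposite directions. Of 23 tested, 4 rose and 4 fell, with a median of -0.12. EOMES, a T-box factor of the anterior streak and endoderm, held 43.9 and 32.3 scaled CPM at 48 h and 6.61 and 10.2 at 72 h and fell by 2.22 ± 0.40 (edgeR adjusted p = 0.00156). T, the gene for Brachyury, held 121 and 96.9 scaled CPM at 48 h and 90.7 and 109.9 at 72 h, with overlapping libraries (edgeR adjusted p = 0.777). MIXL1, a homeobox factor of the streak, held 91.3 and 69.8 scaled CPM at 48 h and 71.5 and 66.3 at 72 h and also overlapped (edgeR adjusted p = 0.786). The streak markers T and MIXL1 were thus not called, while EOMES was. APLNR, a receptor of mesoderm progenitors, held 65.3 and 40.6 scaled CPM at 48 h and 217 and 279.8 at 72 h and rose by 2.21 ± 0.22 (edgeR adjusted p = 1.77e-07). SNAI1, a repressor of CDH1, held 5.70 and 4.83 scaled CPM at 48 h and 10.9 and 17.5 at 72 h and rose by 1.40 ± 0.25. For both genes the 72 h libraries were the higher. FGF8 and TBX6, the other members that rose, are described with the presomitic genes, whose list they share. Besides EOMES, the members that fell were NODAL, CER1 and FGF4, which are on other lists too. APELA, a ligand of the APLNR receptor, was among the 12 largest falls, with 70.0 and 72.2 scaled CPM at 48 h and 11.5 and 9.49 at 72 h and a log2 change of -2.75 ± 0.29.

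Many presomitic mesoderm and segmentation clock genes rose. Of 23 tested, 10 rose and 2 fell, with a median of 0.76, and 9 to 10 rose with 1 library left out, though the number that fell was 1 without 72 h replicate 1 or 48 h replicate 1 and 0 without 72 h replicate 2 or 48 h replicate 2, and the median was 1.78 without 48 h replicate 1 and 0.30 without 48 h replicate 2. MSGN1, a master factor of presomitic mesoderm, held 6.38 and 4.18 scaled CPM at 48 h and 25.03 and 36.8 at 72 h and rose by 2.50 ± 0.34 (edgeR adjusted p = 0.000329). It had 0 counts in every bcat library up to 24 h. TBX6, which directs cells to paraxial mesoderm, held 4.16 and 4.05 scaled CPM at 48 h and 14.8 and 24.04 at 72 h and rose by 2.23 ± 0.27. FGF8, a ligand of the posterior growth zone, held 6.56 and 5.62 scaled CPM at 48 h and 25.9 and 23.9 at 72 h and rose by 2.01 ± 0.26.

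The clock is a loop of NOTCH signalling genes that oscillates in presomitic mesoderm, and several of its parts rose. HES7, its repressor, held 0.969 and 0.914 scaled CPM at 48 h and 4.75 and 7.49 at 72 h and rose by 2.67 ± 0.45. LFNG, a glycosyltransferase that modifies NOTCH, held 4.96 and 5.36 scaled CPM at 48 h and 23.9 and 24.5 at 72 h and rose by 2.24 ± 0.23 (edgeR adjusted p = 9.89e-08). The ligand DLL1 held 12.8 and 11.8 scaled CPM at 48 h and 39.8 and 48.4 at 72 h and rose by 1.84 ± 0.27, and DLL3 by 1.73 ± 0.24. In each of these 4 genes both 72 h libraries exceeded both 48 h libraries, and 42.1% of all genes tested lay apart in 1 direction or the other. HES7, LFNG, DLL1, DLL3 and NRARP count both in the presomitic list above and in the NOTCH list below. Both MESP2 and HES1 were not called. MESP2, which marks the boundary of the next somite, held 1.03 and 1.70 scaled CPM at 48 h and 1.11 and 0.738 at 72 h (edgeR adjusted p = 0.688), and HES1, a NOTCH effector, averaged 25.7 ± 4.67 scaled CPM and 23.6 ± 1.12 scaled CPM (SD, n = 2; edgeR adjusted p = 0.868). RIPPLY2, which ends MESP2 expression, had 0 counts at 48 h and rose at least 5.86-fold, and the call was lost without 72 h replicate 2 or 48 h replicate 1. NRARP, a NOTCH feedback inhibitor, held 4.96 and 7.58 scaled CPM at 48 h and 3.12 and 2.74 at 72 h and fell, and the call was lost without 72 h replicate 1, 72 h replicate 2 or 48 h replicate 2. Over the 21 NOTCH receptors, ligands and effectors tested, 5 rose and 1 fell, with a median of 0.45, though the number that fell was 0 without 72 h replicate 1, 72 h replicate 2 or 48 h replicate 2.

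The MSGN1 promoter is printed as an example of a gene that rose. It covers the 250 bases before the RefSeq start, chr2:17816210-17816459 on GRCh38.p14, plus strand, with the same TCF and LEF core in capitals.
MSGN1: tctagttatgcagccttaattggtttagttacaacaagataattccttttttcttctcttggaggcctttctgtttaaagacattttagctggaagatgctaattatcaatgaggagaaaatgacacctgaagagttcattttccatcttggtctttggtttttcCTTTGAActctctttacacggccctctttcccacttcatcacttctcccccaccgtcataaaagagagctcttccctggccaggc
It holds 1 match, and 5.94% of all windows hold at least 1.

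Some FGF feedback genes rose and others were not called or fell. Of 25 FGF ligands and ERK feedback genes tested, 8 rose and 2 fell, with a median of 0.15, though the number that fell was 0 without 72 h replicate 1, 72 h replicate 2 or 48 h replicate 1, and the median was 0.58 without 48 h replicate 1 and -0.11 without 48 h replicate 2. DUSP6, a phosphatase that acts on ERK, held 37.2 and 31.9 scaled CPM at 48 h and 165 and 152 at 72 h and rose by 2.19 ± 0.25 (edgeR adjusted p = 4.07e-06). SPRY4, an inhibitor of the pathway, held 19.4 and 17.5 scaled CPM at 48 h and 41.97 and 60.9 at 72 h and rose by 1.46 ± 0.22, and SPRY2 rose by 1.05 ± 0.16. FGF4, the ligand of pluripotent cells, held 19.2 and 13.1 scaled CPM at 48 h and 8.02 and 9.28 at 72 h and fell, and the call was lost without 72 h replicate 1, 72 h replicate 2 or 48 h replicate 1.

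Later paraxial mesoderm genes were called higher only. Of 17 tested, 3 rose and 0 fell, with a median of 0.28, or 0.10 with bounds, though the number that rose was 1 without 72 h replicate 2 or 48 h replicate 2, and the median was 0.67 without 72 h replicate 1. ALDH1A2, the enzyme that makes retinoic acid in somites, held 4.16 and 2.61 scaled CPM at 48 h and 36.1 and 54.1 at 72 h and rose by 3.66 ± 0.34 (edgeR adjusted p = 3.32e-08). PAX3, a somite and neural crest factor, held 21.9 and 16.5 scaled CPM at 48 h and 51.4 and 43.9 at 72 h and rose, and the call was lost whichever of the 4 libraries was left out. The muscle factor MYOD1 and the somite factors MEOX1, MEOX2, PAX1 and UNCX did not pass the filter on low counts. Of 17 retinoic acid genes tested, 2 rose and 2 fell, with a median of -0.10, though the number that fell was 0 whichever of the 4 libraries was left out. DHRS3, which turns retinal back to retinol, held 7.07 and 7.58 scaled CPM at 48 h and 26.0 and 20.6 at 72 h and rose by 1.68 ± 0.20. CYP26A1, which degrades retinoic acid, held 2.11 and 3.14 scaled CPM at 48 h and 0.891 and 1.37 at 72 h and was not called (edgeR adjusted p = 0.373).

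Members of all 4 HOX clusters were called higher, with 8 of 9 tested in HOXB. HOX factors set position along the body axis, and within a cluster genes nearer the 5′ end, with higher numbers, are switched on later and further back. The HOXB genes lie on chromosome 17, with HOXB1 at chr17:48528526-48531001 and HOXB9 at chr17:48621159-48626356 (GENCODE, GRCh38). Of 9 HOXB genes tested, 8 rose and 0 fell, with a median of 2.28, and 5 to 8 rose with 1 library left out, the fewest without 48 h replicate 1. HOXB9 held 0.627 and 0.392 scaled CPM at 48 h and 31.1 and 28.8 at 72 h and rose by 5.75 ± 0.46 (edgeR adjusted p = 1.47e-06). HOXB8 held 0.513 and 1.18 scaled CPM at 48 h and 15.2 and 16.9 at 72 h and rose by 4.39 ± 0.50. HOXB5 held 0.228 and 0.261 scaled CPM at 48 h and 4.61 and 4.22 at 72 h and rose by 4.17 ± 0.61. All 3 had 0 counts in every bcat library up to 24 h.

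The 3′ genes HOXB1 to HOXB4 had fitted changes below those of HOXB5, HOXB8 and HOXB9, which was not tested. HOXB1 held 44.97 and 60.7 scaled CPM at 48 h and 97.2 and 97.9 at 72 h and rose by 0.89 ± 0.19, and the call was lost without 48 h replicate 1. HOXB2 rose by 1.37 ± 0.31, HOXB3 by 2.28 ± 0.25 and HOXB4 by 1.33 ± 0.31, and for HOXB4 the call was lost without 72 h replicate 2, 48 h replicate 1 or 48 h replicate 2. HOXB7 held 1.20 and 1.31 scaled CPM at 48 h and 4.53 and 4.32 at 72 h and was not called (edgeR adjusted p = 0.0826), though its libraries lay apart. The order was thus not even along the cluster, with HOXB4, HOXB6 and HOXB7 each below the gene before them in fitted change. Neighbouring changes were not tested against each other either.

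**Figure D3:**
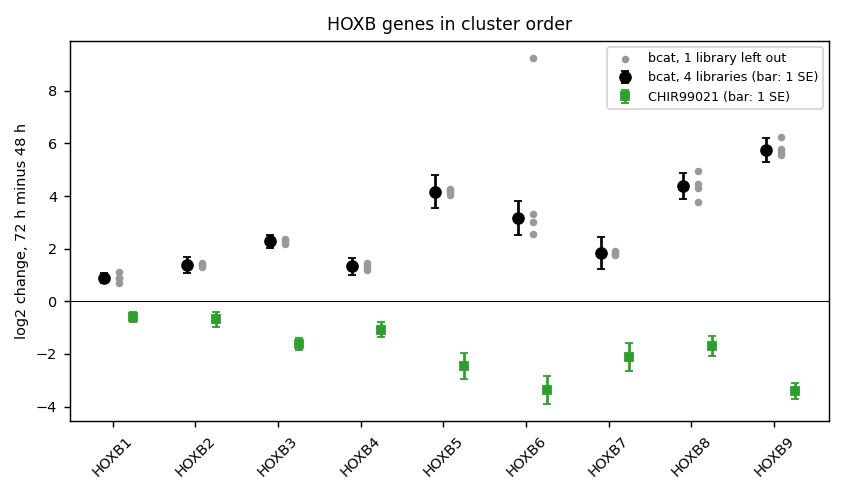
Fitted log2 change, 72 h minus 48 h, of the 9 HOXB genes tested, in cluster order from HOXB1 to HOXB9 (black, bcat with 1 standard error; grey, the same with 1 library left out; green, CHIR99021 with 1 standard error). All 9 bcat points lie above 0 and all 9 CHIR99021 points below, and the single high grey point at HOXB6 is a fit in which the remaining 48 h library has 0 counts.

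Fewer genes of the other clusters were called. Of 6 HOXC and HOXD genes tested, 3 rose and 0 fell, with a median of 4.47, or 2.89 with bounds. HOXC4 held 1.31 and 1.18 scaled CPM at 48 h and 8.02 and 8.01 at 72 h and rose by 2.67 ± 0.40. HOXD3 had 0 and 1 estimated counts at 48 h and 39 and 22 at 72 h, a ratio of 66.99 (counting interval 11.6 to 2689). HOXD4 had 0 and 0 estimated counts at 48 h and 16 and 17 at 72 h and rose at least 12.1-fold, and the call was lost without 48 h replicate 1. DESeq2 called 1 of the 6, and 1 of the 8 HOXA genes tested. The summed level of these HOXA genes was 104 and 108 scaled CPM at 48 h and 119 and 111 at 72 h. At an unadjusted p below 0.05 edgeR had 4 HOXA genes higher and 1 lower. Of 8 HOXA genes tested, 2 rose and 0 fell, with a median of 1.64, or 1.17 with bounds, though the number that rose was 1 without 72 h replicate 1 or 72 h replicate 2 and 0 without 48 h replicate 2. HOXA5 held 1.03 and 0.131 scaled CPM at 48 h and 4.90 and 4.85 at 72 h and rose by 2.83 ± 0.61, and the call was lost without 48 h replicate 2. HOXA4 rose by 2.79 ± 0.77, and the call was lost without 72 h replicate 1, 72 h replicate 2 or 48 h replicate 2.

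HOXA-AS3 and HOXB-AS3, antisense RNAs of the clusters, were named for the size of their rise and not from a list of such RNAs. HOXA-AS3 held 0.456 and 0 scaled CPM at 48 h and 30.3 and 25.2 at 72 h and rose by 6.46 ± 0.52 (edgeR adjusted p = 5.12e-06). HOXB-AS3 held 0.114 and 0.392 scaled CPM at 48 h and 9.58 and 10.7 at 72 h and rose by 5.58 ± 0.57. The library kit keeps strand, but whether strand was used in the counting is not given in the sources used here, so reads of these RNAs and of the HOX genes they overlap cannot be told apart.

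Among the CDX factors, which act upstream of posterior HOX genes, CDX4 rose. It held 3.99 and 2.48 scaled CPM at 48 h and 34.5 and 27.4 at 72 h, a log2 change of 3.20 ± 0.31 (edgeR adjusted p = 3.68e-08). CDX2 held 133 and 137 scaled CPM at 48 h and 236 and 209 at 72 h, apart but not called (edgeR adjusted p = 0.0733), and CDX1 held 86.7 and 79.2 scaled CPM at 48 h and 118 and 107 at 72 h (edgeR adjusted p = 0.239). GBX2, which also marks the posterior epiblast, held 63.3 and 78.6 scaled CPM at 48 h and 35.4 and 32.3 at 72 h and fell by 1.06 ± 0.21. Of the 5 genes tested in this list 1 rose and 1 fell, with a median of 0.44.

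Many BMP response genes rose. BMP ligands pattern mesoderm toward lateral and extraembryonic fates and induce ID and MSX genes. Of 21 tested, 10 rose and 0 fell, with a median of 1.24, and 8 to 9 rose with 1 library left out. The ligand BMP4 held 8.49 and 6.27 scaled CPM at 48 h and 25.3 and 21.7 at 72 h and rose by 1.65 ± 0.33 (edgeR adjusted p = 0.00146). ID3, an inhibitor of basic helix-loop-helix factors, held 97.9 and 87.3 scaled CPM at 48 h and 333 and 293 at 72 h and rose by 1.75 ± 0.13 (edgeR adjusted p = 1.79e-10). MSX2, a homeobox factor, held 2.57 and 2.22 scaled CPM at 48 h and 14.4 and 16.3 at 72 h and rose by 2.66 ± 0.33. No library of 48 h reached a library of 72 h in these 3 genes. GREM1, a secreted BMP antagonist, held 2.34 and 1.31 scaled CPM at 48 h and 43.3 and 27.9 at 72 h and rose by 4.19 ± 0.34 (edgeR adjusted p = 1.93e-09). A further antagonist, NOG, averaged 1.04 ± 0.0135 scaled CPM at 48 h and 4.94 ± 1.62 scaled CPM at 72 h (SD, n = 2) and rose, and the call was lost without 72 h replicate 1 or 48 h replicate 1. Ligand, target and antagonist thus rose over the same day.

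Several lateral plate genes rose from low levels. Of 22 lateral plate and cardiac genes tested, 6 rose and 0 fell, with a median of 1.03, or 0.83 with bounds, though the number that fell was 1 without 48 h replicate 2, and the median was 2.23 without 48 h replicate 1. HAND1, a factor of lateral and extraembryonic mesoderm, had 2 and 0 estimated counts at 48 h and 37 and 57 at 72 h, a ratio of 51.6 (counting interval 13.9 to 432). FOXF1, a lateral plate factor, held 0.570 and 0.131 scaled CPM at 48 h and 4.09 and 7.91 at 72 h and rose by 3.84 ± 0.65. Both were near 0 at 48 h. TBX3 held 1.82 and 1.18 scaled CPM at 48 h and 12.8 and 21.4 at 72 h and rose by 3.42 ± 0.47. PDGFRA, a receptor of mesoderm cells, held 5.93 and 2.61 scaled CPM at 48 h and 32.98 and 41.7 at 72 h and rose by 3.02 ± 0.41. In each of these 4 genes replicate 2 was the higher of the 72 h libraries. OSR1 rose from 1 count over both 48 h libraries, a ratio of 18.7 (counting interval 2.93 to 780.2), and the call was lost without 72 h replicate 2, 48 h replicate 1 or 48 h replicate 2. GATA4 held 3.76 and 3.66 scaled CPM at 48 h and 4.38 and 7.80 at 72 h and was not called (edgeR adjusted p = 0.374), and the cardiac muscle gene TNNT2 stayed under 1 scaled CPM in all 4 libraries.

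Many epithelial junction genes fell and many mesenchymal genes rose. Of 25 junction genes tested, 0 rose and 10 fell, with a median of -0.53, and 6 to 9 fell with 1 library left out, the fewest without 72 h replicate 2. CDH1, the gene for E-cadherin, held 145 and 155 scaled CPM at 48 h and 47.02 and 53.9 at 72 h and fell by 1.57 ± 0.20 (edgeR adjusted p = 1.23e-05). Its mean had been 371 at 24 h. EPCAM, an epithelial adhesion protein, held 85.4 and 75.8 scaled CPM at 48 h and 37.96 and 28.7 at 72 h and fell by 1.27 ± 0.13 (edgeR adjusted p = 8.43e-08). ESRP1, an epithelial splicing regulator, held 60.5 and 50.9 scaled CPM at 48 h and 24.7 and 25.3 at 72 h and fell by 1.16 ± 0.13. At an unadjusted p below 0.05 edgeR had 1 junction gene higher and 17 lower, and DESeq2 called 1 higher and 11 lower.

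Of 21 mesenchymal genes tested, 9 rose and 0 fell, with a median of 0.74, and 7 to 8 rose with 1 library left out. VIM, an intermediate filament of mesenchymal cells, held 1085 and 1129 scaled CPM at 48 h and 2572 and 2060.5 at 72 h and rose by 1.07 ± 0.14 (edgeR adjusted p = 6.06e-06). CDH11, a mesenchymal cadherin, held 43.04 and 29.7 scaled CPM at 48 h and 153 and 186 at 72 h and rose by 2.20 ± 0.19 (edgeR adjusted p = 1.53e-08). FN1, the matrix protein fibronectin, held 88.9 and 75.9 scaled CPM at 48 h and 142 and 169 at 72 h and rose by 0.91 ± 0.16. All 3 were higher in both 72 h libraries. CDH2, the gene for N-cadherin, had a mean of 34.6 at 0 h and held 382 and 295 scaled CPM at 48 h and 383 and 354 at 72 h (edgeR adjusted p = 0.616). ZEB2, a repressor of CDH1, was not called either, with 123 and 99.2 scaled CPM at 48 h and 120.5 and 121 at 72 h (edgeR adjusted p = 0.832). Of 20 collagen genes tested, 7 rose and 0 fell, with a median of 0.38, though the number that rose was 3 without 48 h replicate 1. COL5A2 held 12.3 and 13.5 scaled CPM at 48 h and 76.9 and 61.9 at 72 h and rose by 2.44 ± 0.25.

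Markers of other fates were called in both directions. Over all genes tested 2.72% rose and 3.46% fell. Of 16 definitive endoderm genes tested, 1 rose and 2 fell, with a median of -0.29. The 2 that fell were CER1, also on the NODAL list, and CLDN6, also on the junction list. The one that rose was CXCR4, a chemokine receptor of endoderm and of mesoderm, with 12.7 and 10.1 scaled CPM at 48 h and 76.1 and 72.7 at 72 h and a log2 change of 2.69 ± 0.22. SOX17, a defining endoderm factor, held 0 and 0.131 scaled CPM at 48 h and 0.223 and 0.105 at 72 h, and FOXA2 held 0.399 and 0.523 scaled CPM at 48 h and 0.0743 and 0 at 72 h. The CXCR4 ligand CXCL12 was among the 12 largest falls, with 49.8 and 57.5 scaled CPM at 48 h and 12.03 and 10.02 at 72 h and a log2 change of -2.27 ± 0.20. ACKR3, a second receptor of that ligand, held 0.684 and 0.392 scaled CPM at 48 h and 8.25 and 6.01 at 72 h and rose by 3.62 ± 0.55.

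Of 18 neural ectoderm genes tested, 1 rose (ZIC1) and 2 fell, with a median of 0.03, though the number that fell was 1 without 72 h replicate 2, 48 h replicate 1 or 48 h replicate 2, and the median was -0.36 without 72 h replicate 1 and -0.19 without 48 h replicate 1. GBX2, described above with the CDX factors, was 1 of the 2 that fell, and PAX6 did not pass the filter. Of 15 neural crest and border genes tested, 5 rose and 0 fell, with a median of 0.45, though the number that rose was 3 without 72 h replicate 1 or 48 h replicate 1, and the median was 0.91 without 72 h replicate 1 and 0.90 without 48 h replicate 2. They were PAX3, MSX1, MSX2, ZIC1 and CDH6, all of which mesoderm can also express, and which cells held their RNA was not tested. The crest factor SOX10 held 0.0570 and 0.131 scaled CPM at 48 h and 0.520 and 0.316 at 72 h. It was higher in both 72 h libraries but under 1 scaled CPM in all 4, and was not called. The summed level of that list in scaled CPM was 291 and 292 at 48 h and 560.2 and 466 at 72 h, and its part in the other results was not tested. Of 19 endothelial and blood genes tested, 1 rose (TIE1), with a median of 0.06, though the number that rose was 2 without 72 h replicate 1 and 0 without 72 h replicate 2, 48 h replicate 1 or 48 h replicate 2, and the number that fell was 1 without 48 h replicate 2, and the median was 0.42 without 72 h replicate 1 and 0.70 without 48 h replicate 1 and 0.63 without 48 h replicate 2. Of that list 11 stayed under 1 scaled CPM in all 4 libraries. Of 15 amnion and trophoblast genes tested, 2 rose (HAND1 and TBX3), with a median of 0.19, though the median was 0.63 without 72 h replicate 1 and 0.59 without 48 h replicate 1. GATA3 and TFAP2A stayed under 1 scaled CPM. Of 17 ephrins and Eph receptors, guidance molecules that keep cell groups apart, 1 rose and 2 fell, with a median of 0.04, though the number that rose was 2 without 72 h replicate 2, and the number that fell was 1 without 72 h replicate 2 or 48 h replicate 2. EPHA1 held 54.5 and 47.7 scaled CPM at 48 h and 20.8 and 25.9 at 72 h and fell by 1.14 ± 0.16, and the ligand EFNA1 rose by 1.27 ± 0.26.

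Beyond the lists, the genes with the largest changes included receptors, channels and secreted proteins. SCARB2, a lysosomal receptor, had 1 and 0 estimated counts at 48 h and 98 and 27 at 72 h, a ratio of 137 (counting interval 24.2 to 5465). Its means had been 10.3 scaled CPM at 0 h and 2.61 at 24 h, so the 48 h libraries were the low ones of the course. SLC7A14 held 0.399 and 0 scaled CPM at 48 h and 5.27 and 5.69 at 72 h and rose by 4.32 ± 0.69, and RASGRP3, an activator of RAS, held 1.03 and 0.914 scaled CPM at 48 h and 10.1 and 18.1 at 72 h and rose by 3.82 ± 0.46.

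On the falling side, SHISA3, an inhibitor of WNT and FGF receptors, held 10.6 and 13.7 scaled CPM at 48 h and 1.19 and 1.16 at 72 h and fell by 3.35 ± 0.35. HTR1D, a serotonin receptor, held 10.8 and 16.5 scaled CPM at 48 h and 1.63 and 1.69 at 72 h and fell by 3.01 ± 0.32. SOX14 fell by 2.98 ± 0.52, PPIC by 2.77 ± 0.24, CDH12 by 2.68 ± 0.50, KCNA5 by 2.39 ± 0.41 and BRINP1 by 2.33 ± 0.25. All 24 genes taken as the 12 largest rises and 12 largest falls were called with each of the 4 libraries left out.

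Metallothioneins fell, with 7 of 8 members called. These small proteins bind zinc and copper, and zinc induces their genes through the factor MTF1. Of 8 genes tested, SLC30A1 included, 0 rose and 7 fell, with a median of -2.09, or -1.90 with bounds, though the number that fell was 1 without 72 h replicate 1 and 4 without 72 h replicate 2 or 48 h replicate 1. MT1E held 2.45 and 3.53 scaled CPM at 48 h and 0.0743 and 0.422 at 72 h and fell by 3.67 ± 0.54 (edgeR adjusted p = 4.43e-05). MT1X held 7.30 and 8.10 scaled CPM at 48 h and 2.82 and 3.27 at 72 h and fell by 1.33 ± 0.30, and the call was lost without 72 h replicate 1. SLC30A1, a zinc exporter with the same regulator, held 13.9 and 12.9 scaled CPM at 48 h and 6.24 and 5.48 at 72 h and fell, and the call was lost whichever of the 4 libraries was left out. MT2A held 2.00 and 3.14 scaled CPM at 48 h and 0.891 and 0.527 at 72 h and was the member not called (edgeR adjusted p = 0.0512). MT1 genes are near-identical copies, so the assignment of reads among them is uncertain. The MT1X mean had been 138 scaled CPM at 0 h, 28.3 at 16 h and 15.7 at 24 h.

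Promoters of MT1X, which fell, and MT2A, which was not called, are printed as examples of the family's regulatory sequence. They are the 250 bases before the RefSeq start on GRCh38.p14, plus strand, chr16:56682220-56682469 and chr16:56608334-56608583, with each TGCGCNC or TGCACNC, the core of the metal response element, in capitals on either strand, overlaps included.
MT1X: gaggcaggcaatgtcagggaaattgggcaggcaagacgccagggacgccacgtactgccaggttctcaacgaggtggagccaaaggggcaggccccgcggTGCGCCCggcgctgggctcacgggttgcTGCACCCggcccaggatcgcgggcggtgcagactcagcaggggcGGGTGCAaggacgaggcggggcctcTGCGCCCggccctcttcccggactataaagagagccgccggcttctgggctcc
MT2A: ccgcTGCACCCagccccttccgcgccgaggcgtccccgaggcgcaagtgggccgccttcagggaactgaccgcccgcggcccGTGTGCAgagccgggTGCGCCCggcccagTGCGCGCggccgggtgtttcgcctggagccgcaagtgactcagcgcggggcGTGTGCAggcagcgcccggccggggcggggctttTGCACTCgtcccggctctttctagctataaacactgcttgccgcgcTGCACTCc
This motif too was chosen after values had been seen. The windows hold 4 and 7 matches, and 0.37% of all windows hold at least 4. Of the 8 genes of the list 4 have a RefSeq window.

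The same day under CHIR99021, a GSK3 inhibitor that spares beta-catenin from destruction, was compared through the libraries labelled 72 h and 48 h of that arm. These share no library with the bcat groups. Mitochondrially encoded RNA took 0.795% and 0.981% of the bcat 48 h libraries and 0.659% and 0.634% of those of 72 h. In the CHIR99021 libraries it took 10.3% and 10.4% (labelled 48 h) and 11.2% and 12.7% (labelled 72 h). Cytosolic ribosomal RNA took 4.76% and 5.13%, and 4.23% and 4.74%, of the same CHIR99021 libraries. The part of this make-up in the differences between arms was not tested. In the CHIR99021 step 3158 genes were called (13.0% of those tested), 1826 higher (7.51%) and 1332 lower (5.48%) in the libraries labelled 72 h. The difference between the 2 steps was called in 3493 genes (14.4%), with the bcat change above that of CHIR99021 in 1495 (6.15%) and below it in 1998 (8.22%). Of the 1503 genes called in bcat, 46 (3.06%) were called in the same direction under CHIR99021, 597 (39.7%) in the opposite direction and 860 were not called there. Over all genes tested the CHIR99021 step was called in the direction of the bcat change in 826 (3.40%) and in the opposite direction in 2330 (9.59%), so the share called in the same direction is near that of all genes. The difference itself was called for 1186 of the 1503. These directions rest on the time labels of that arm: with the CHIR99021 step turned, an alternative chosen after seeing the data, the difference was called in 928 genes, 541 higher and 387 lower in bcat.

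Between 48 h and 72 h the distance of the CHIR99021 arm from 0 h ran against its time labels. The root mean square log2 distance from the arm's own 0 h cultures was 0.854 and 0.840 for the CHIR99021 libraries labelled 48 h and 0.705 and 0.699 for those labelled 72 h. In bcat it was 0.700 and 0.726 at 48 h and 0.798 and 0.821 at 72 h. The directions drawn from the CHIR99021 libraries therefore rest on 48 h and 72 h labels that this measure does not follow, and why was not tested.

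Single genes show the opposite directions as labelled. HOXB9 in the CHIR99021 arm held, in scaled CPM, 185 and 148 in the libraries labelled 48 h and 19.9 and 10.8 in those labelled 72 h, a change of -3.41 ± 0.31, so that the bcat minus CHIR99021 difference was 9.16 ± 0.55 (edgeR adjusted p = 1.04e-08). NODAL held 0.344 and 0.272 in the libraries labelled 48 h and 2.64 and 5.97 in those labelled 72 h, and its difference was -7.77 ± 0.57 (edgeR adjusted p = 7.64e-11). POU5F1 held 107 and 110.2 in the libraries labelled 48 h and 376 and 401 in those labelled 72 h, and its difference was -2.97 ± 0.15 (edgeR adjusted p = 1.78e-14). Under CHIR99021 HOXB9 was thus higher, and NODAL and POU5F1 lower, in the libraries labelled 48 h, while in bcat this held for 72 h. AXIN2 held 316 and 382 in the libraries labelled 48 h and 409 and 422 in those labelled 72 h, with a difference of 0.09 ± 0.25 (edgeR adjusted p = 0.889).

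**Figure D4:**
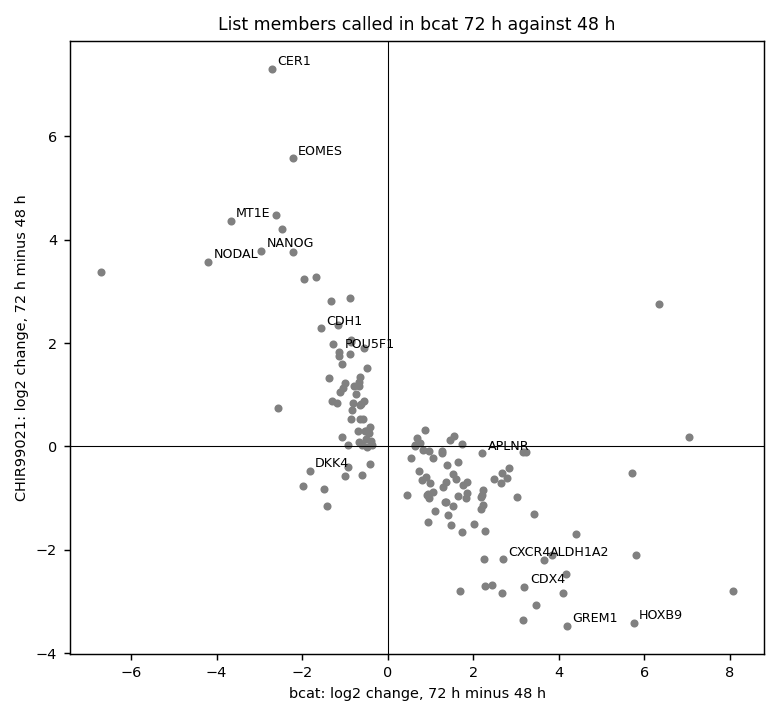
Log2 change from 48 h to 72 h in bcat (x axis) against that in the libraries so labelled under CHIR99021 (y axis), 1 point for each of 145 list genes called in bcat. The points run from the upper left to the lower right, and 126 of 145 have opposite signs in the 2 arms. These genes were chosen for their call in bcat, from lists written with earlier results known. The Pearson correlation of the 2 changes was -0.59 over the 1503 genes called in bcat and -0.18 over all 24304 tested.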

How the data were processed

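Total RNA of H9 cells was sequenced from stranded libraries. Per the submitters' processing notes the authors quantified reads with kallisto 0.43.0, and the deposited values are estimated counts. Not given in the sources used here are the genome build, the annotation, the use of strand and how genes were summed. Each deposited column appeared to be scaled by 1 constant, estimated as its most frequent low value (1.04, 2.47, 1.37 and 2.04 for the 4 libraries compared, in the order 48 h and 72 h). The scaling itself is not given in the sources used here. Columns were divided by the constant, which put 57.4% to 81.3% of the values under 20 counts at whole numbers to within 0.1, and rounded. Depths, counts, bounds and counting intervals rest on that estimate. Of 43412 symbols 27 had become dates and are never named. Both Wnt3a 72 h columns were identical and counted as 1 library.

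All 37 libraries entered 1 edgeR 4.0.16 quasi-likelihood fit (R 4.3.3) with 1 mean for each of 19 groups (18 residual degrees of freedom), TMM scaling, filterByExpr, robust estimation and trended dispersions. P-values were adjusted by Benjamini-Hochberg over 24304 genes and called below 0.05. The step under CHIR99021 was subtracted in an interaction contrast. Alternatives were DESeq2 1.42.0, other scalings, filters, sample sets, a replicate block and each library left out. The replicate numbers do not pair the libraries.

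Named genes were the 12 largest called changes per direction whose libraries lay apart and whose higher group averaged 5 CPM or more, key members and the 2 largest called changes per direction (at least 2 CPM) of each of 41 lists, and the 6 largest differences per direction from CHIR99021. Other list members named to complete a role were chosen after their values had been seen. The members and lists were chosen with earlier results of these data known. Lists overlap, with 742 entries for 660 distinct genes, so their counts are not separate results. NODAL, CER1 and EOMES count in both the streak and the NODAL lists. FGF8 and TBX6 count in both the streak and the presomitic lists, and FGF8 and FGF4 in both the streak and the FGF lists. BMP4 counts in the WNT target list too. CER1 and CLDN6 count in the endoderm list too, CLDN6 in the junction list, and GBX2 in both the posterior and the neural lists. HAND1, TBX3 and BMP4 count in both the lateral plate and the BMP lists, and MSX1 and MSX2 in both the crest and the BMP lists. Where a group had 0 counts a fold is a bound against 3 counts over the group. With 1 to 3 counts the ratio stands with a 95% interval, and both cover counting error only. Fitted changes of such genes depend on the prior count. Gene positions are from GENCODE and promoters from RefSeq (GRCh38.p14), matched by symbol.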

Additional observations from a re-analysis of the deposited data

Results flagged for a closer look

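The change from 48 h to 72 h differed between bcat and the CHIR99021 libraries so labelled, by a test of the difference itself, in 3493 genes. The largest such differences by the naming rule are given as the bcat change minus the CHIR99021 change on the log2 scale. Their order and size rest on the time labels of the CHIR99021 arm, which its distance from 0 h does not follow between 48 h and 72 h. With that step turned 928 genes differed. Differences were positive for HOXB-AS3 (10.61), HOXA-AS3 (9.76), TUBBP6 (9.64), HOXB9 (9.16), SCARB2 (7.88) and COL3A1 (7.71). They were negative for CER1 (-10.02), HES3 (-8.17), EOMES (-7.79), NODAL (-7.77), SOX14 (-6.86) and NANOG (-6.75).

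TUBBP6, a tubulin pseudogene whose reads may be shared with its relatives, had 0 counts in both bcat 48 h libraries and was at least 11.3-fold higher at 72 h. COL3A1, a fibrillar collagen, held 0.0570 and 0.131 scaled CPM at 48 h and 1.71 and 0.633 at 72 h in bcat, which was not called (edgeR adjusted p = 0.101). It had 1 and 1 estimated counts at 48 h, a ratio of 15.9 (counting interval 4.03 to 138). Under CHIR99021 it held 15.4 and 21.7 in the libraries labelled 48 h and 1.77 and 0.465 in those labelled 72 h. HES3, a basic helix-loop-helix repressor, held 7.75 and 13.6 scaled CPM at 48 h and 2.45 and 3.27 at 72 h in bcat, a log2 change of -1.88 ± 0.33, and 0.137 and 0 in the libraries labelled 48 h and 4.86 and 9.54 in those labelled 72 h. CER1 had 0 counts in both CHIR99021 libraries labelled 48 h, so its fitted difference depends on the prior count and is no measured fold. The fitted differences of TUBBP6, SCARB2 and COL3A1 depend on it too.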

How the results depend on the processing

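The count of 1503 called genes stayed within 1.5 times under every alternative run except 641 with a 2-fold threshold added, 649 with only the 4 libraries fitted (which have 16400 genes tested and fewer degrees of freedom), 647 without 72 h replicate 2 (391 higher, 256 lower) and 703 without 48 h replicate 1 (351 and 352). With 1 library left out it ranged from 647 to 1408. The difference from CHIR99021, 3493 genes, ranged from 2684 to 3136 with 1 library left out. With the replicate number as a block the counts were 1391 and 3287. Over 15 pairs of bcat groups same-numbered libraries deviated together at correlations of -0.0519 to 0.0413, none above 0.1, so the numbers are not taken to pair the samples. Without the 4 libraries in doubt (bcat 0 h replicate 1, 24 h replicate 1, 48 h replicate 2 and Wnt3a 0 h replicate 1), an alternative chosen after seeing the data, 1270 and 3203 were called. DESeq2 called 1967 and 3850. With the CHIR99021 step turned, also chosen after seeing the data, the difference was called in 928 genes (541 higher, 387 lower). Of the 12 named differences the sign changed for COL3A1 (-0.041), CER1 (4.61), HES3 (4.41), EOMES (3.35), SOX14 (0.91) and NANOG (0.83), of which HES3 and EOMES were called, and HOXB-AS3 (0.55) and NODAL (-0.62) were no longer called. By construction this setting changes the direction of 1 arm only.

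Of 115 named genes called, 115 were called with upper-quartile scaling, 115 without ribosomal RNA genes, 92 without 48 h replicate 2 and 89 without 72 h replicate 2, and 0 of their bcat changes reversed in any setting. Of 41 list medians 12 changed sign in some setting, and of the 11 at least 0.5 in size 0 did. The median of all genes moved by less than 0.1 in every setting. With 2 libraries a group, and 6.90 M counts outside ribosomal RNA in 48 h replicate 2, changes of genes under 1 scaled CPM rest on few counts.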

Other observations

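Genes of growth, metabolism and stress are set beside the 2.72% of all genes that rose and the 3.46% that fell. Of 23 mitosis genes tested 0 rose and 2 fell (BUB1 and CCNA2, for which the call was lost without 72 h replicate 1, 72 h replicate 2 or 48 h replicate 1), with a median of -0.15, though the number that fell was 1 without 72 h replicate 1, 72 h replicate 2 or 48 h replicate 1 and 4 without 48 h replicate 2. Of 23 DNA replication genes 0 rose and 1 fell (MCM3), with a median of -0.20, though the number that fell was 2 without 72 h replicate 1 and 0 without 72 h replicate 2 or 48 h replicate 1. TOP2A, a topoisomerase of dividing cells, held 724 and 549 scaled CPM at 48 h and 653 and 556 at 72 h, with overlapping libraries (edgeR adjusted p = 0.814). Of 20 replication-dependent histone genes 1 rose and 1 fell, with a median of 0.14, though the number that rose was 0 without 72 h replicate 1 or 48 h replicate 1, and the number that fell was 0 without 72 h replicate 1, 48 h replicate 1 or 48 h replicate 2. Of 10 MYC family and D-type cyclin genes 1 rose (MXD3) and 1 fell (MYCL), with a median of -0.06, though the number that rose was 0 without 72 h replicate 2 or 48 h replicate 1, and the number that fell was 0 without 72 h replicate 2 or 48 h replicate 2. MYC itself held 7.24 and 6.79 scaled CPM at 48 h and 6.76 and 5.27 at 72 h. Of 21 p53 targets 3 rose and 0 fell, with a median of 0.00, though the number that rose was 1 without 72 h replicate 1, 48 h replicate 1 or 48 h replicate 2, and the number that fell was 2 without 72 h replicate 1. At an unadjusted p below 0.05 edgeR had 4 p53 targets higher and 4 lower, and DESeq2 called 3 higher and 1 lower. BTG2, which slows the cell cycle, held 4.22 and 3.79 scaled CPM at 48 h and 12.3 and 10.9 at 72 h and rose by 1.52 ± 0.21. CDKN1A, another member, had a log2 change of -0.66 ± 0.27 and was not called (edgeR adjusted p = 0.171).

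Of 26 cholesterol and fatty acid synthesis genes 0 rose and 0 fell in edgeR, with a median of 0.01, while at an unadjusted p below 0.05 there were 3 higher and 3 lower, and DESeq2 called 1 higher and 1 lower. Of 22 hypoxia and glycolysis genes 0 rose and 4 fell, with a median of -0.11, though the number that fell was 1 without 72 h replicate 2 and 2 without 48 h replicate 1. ADM, a secreted peptide induced by low oxygen, held 24.4 and 30.6 scaled CPM at 48 h and 6.61 and 7.28 at 72 h and fell by 1.98 ± 0.39. Of 23 ATF4 and amino acid response genes 0 rose and 2 fell, with a median of -0.17, though the number that fell was 1 without 72 h replicate 2. SLC7A5, an amino acid carrier, held 213 and 266 scaled CPM at 48 h and 109 and 113 at 72 h and fell by 1.11 ± 0.22. Of 10 NRF2 genes 0 rose and 2 fell, with a median of -0.27, though the number that fell was 0 without 72 h replicate 2 or 48 h replicate 1 and 1 without 48 h replicate 2. Of 20 interferon response genes 1 rose and 3 fell, with a median of -0.03, though the number that rose was 0 without 48 h replicate 2, and the number that fell was 1 without 72 h replicate 2 or 48 h replicate 1. IFITM1, a membrane protein that blocks viral entry, held 137 and 119 scaled CPM at 48 h and 85.4 and 77.2 at 72 h and fell by 0.66 ± 0.12.

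Of 9 DNA methylation enzymes 0 rose and 2 fell (DNMT3B and DNMT1), with a median of -0.26, and for DNMT1 the call was lost whichever of the 4 libraries was left out. Of 9 glucocorticoid-responsive genes 1 rose (ZBTB16), with a median of -0.16, though the number that rose was 2 without 72 h replicate 1 and 0 without 72 h replicate 2 or 48 h replicate 2, and the median was 0.12 without 48 h replicate 1. Of 12 YAP-TEAD targets 1 rose (F3), with a median of 0.14, though the number that rose was 0 without 72 h replicate 1, 72 h replicate 2 or 48 h replicate 2. Of 13 mitochondrially encoded mRNAs 0 rose and 0 fell, with a median of 0.21, or 0.70 without 48 h replicate 2 and -0.23 without 48 h replicate 1. None passed in edgeR at an unadjusted p below 0.05 or in DESeq2 either. By gene type, the median log2 change was -0.03 over 15874 protein-coding genes, 0.20 over 672 lincRNAs and 0.21 over 638 antisense RNAs, and without 72 h replicate 2 the lincRNA and antisense medians were 0.00 and 0.06.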
